A study of Mus musculus with 2 samples.

Results

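Chondroitin sulfate chains are built in the Golgi apparatus by a short assembly line of enzymes, and 10 of its genes are described here: Xylt1, Xylt2, Fam20b and B3gat3 of the linker, Csgalnact1 and Csgalnact2 of chain initiation, and Chsy1, Chsy3, Chpf and Chpf2 of elongation. They were taken by symbol, and are 10 of the 32285 genes in each count matrix. The data are single-nucleus RNA sequencing of frozen kidney from male T1+/+ mice that were 11 weeks old when operated. In the 5/6 nephrectomy group the right kidney was taken out and the poles of the left kidney were tied off with a suture a week later, which leaves a remnant kidney. In the sham group the same T1+/+ mice had both flanks opened and the kidneys exposed only, and tissue was collected 4 weeks after surgery in both groups. Each group consists of 1 library. The number of mice behind a library, the region of kidney sampled and the meaning of T1+/+ are not given in the sources used here. The series is titled for Csgalnact1 and fibrosis of the remnant kidney, so the questions taken up are which nuclei use which enzyme of the chain and how their levels in the remnant kidney compare with sham.

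A chondroitin chain hangs on a serine of a core protein through a linker of xylose, a pair of galactoses and glucuronic acid. XYLT1 and XYLT2 add the xylose, FAM20B phosphorylates it, and B3GAT3 adds the glucuronic acid that completes the linker, which heparan sulfate chains also use. CSGALNACT1 and CSGALNACT2 then add the N-acetylgalactosamine that commits the linker to chondroitin, and CHSY1, CHSY3, CHPF and CHPF2 work in pairs to lengthen the chain with alternating glucuronic acid and N-acetylgalactosamine.

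Counts are of unique molecular identifiers (UMIs). The nephrectomy library held 28284727 UMIs over 3299 barcodes and the sham library 21365116 over 3084, and the median barcode had 6844 UMIs in nephrectomy and 5140 in sham. Filtering and doublet removal left 3043 nephrectomy and 2828 sham nuclei, and the libraries shared 2 barcode sequences. Clusters were named from marker genes, so a class name means nuclei like that type, and comparisons were made in the 10 classes that had 30 nuclei or more in both libraries. Proximal tubule-like nuclei numbered 1088 and 1046, thick ascending limb-like nuclei 369 and 392, and blood endothelium-like nuclei 262 and 238 in nephrectomy and sham. The smallest compared class, intercalated A-like nuclei, held 42 and 31. Levels are UMIs per 1000000 UMIs of the class (CPM), and a ratio is nephrectomy CPM over sham CPM. All intervals are 95% intervals for counting error, and with 1 library a group nothing here is checked by a replicate. Free RNA was estimated at 4.75% to 17.8% of a class's UMIs, and the mitochondrial share of UMIs was 0.937% in the nephrectomy and 1.30% in the sham library.

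RefSeq promoter sequences of build GRCm38.p6 were given for 7 of the 10 members, with none for Csgalnact1, Chsy3 and Xylt1. Shown 5′ to 3′ is the stretch before the annotated start of Csgalnact2 (chr6:118139141-118139390, minus strand) and Chsy1 (chr7:66109242-66109491, plus strand), the paralogs of Csgalnact1 and Chsy3, and of Chpf2 (chr5:24586494-24586740, plus strand) and B3gat3 (chr19:8920143-8920373, plus strand), the short genes that were lower in nephrectomy proximal tubule-like nuclei. Capitals mark matches on either strand to the GC box GGGCGG, to CCAAT and to the E-box CACGTG.
Csgalnact2: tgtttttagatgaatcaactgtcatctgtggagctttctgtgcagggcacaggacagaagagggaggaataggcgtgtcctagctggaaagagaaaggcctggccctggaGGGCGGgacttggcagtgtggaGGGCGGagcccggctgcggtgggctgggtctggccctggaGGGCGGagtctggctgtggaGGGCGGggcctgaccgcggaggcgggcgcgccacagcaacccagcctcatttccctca
Chsy1: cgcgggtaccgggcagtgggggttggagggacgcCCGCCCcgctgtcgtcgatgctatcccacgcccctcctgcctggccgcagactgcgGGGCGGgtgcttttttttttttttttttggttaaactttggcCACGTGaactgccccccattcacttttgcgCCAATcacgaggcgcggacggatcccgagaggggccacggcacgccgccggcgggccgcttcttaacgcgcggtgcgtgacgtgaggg
Chpf2: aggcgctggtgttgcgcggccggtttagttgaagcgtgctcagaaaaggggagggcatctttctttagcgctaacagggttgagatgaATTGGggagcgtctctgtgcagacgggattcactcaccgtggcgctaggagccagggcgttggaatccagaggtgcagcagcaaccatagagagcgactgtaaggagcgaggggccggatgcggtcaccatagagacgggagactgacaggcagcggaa
B3gat3: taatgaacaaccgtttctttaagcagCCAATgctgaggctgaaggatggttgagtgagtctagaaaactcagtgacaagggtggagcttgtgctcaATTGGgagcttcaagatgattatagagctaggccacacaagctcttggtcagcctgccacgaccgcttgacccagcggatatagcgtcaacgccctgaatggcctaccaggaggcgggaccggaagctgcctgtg
The Csgalnact2 stretch holds 4 GC boxes and no CCAAT, and the Chsy1 stretch 2 GC boxes, 1 CCAAT and 1 E-box. Chpf2 and B3gat3 hold no GC box, with 1 and 2 CCAAT matches. Over the 250 bases before the start of all 32851 promoters in the table, 32.7% hold GGGCGG, 33.8% CCAAT, 12.4% TATAAA and 6.02% CACGTG on either strand. None of the 7 member promoters holds TATAAA. Their GC content runs from 54.4% in B3gat3 to 81.2% in Fam20b, against a median of 52.4% over all promoters. Of the 250 Fam20b bases, 176 lie inside the gene as annotated by GENCODE vM21. The matches and GC content describe the letters only.

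**Figure D1:**
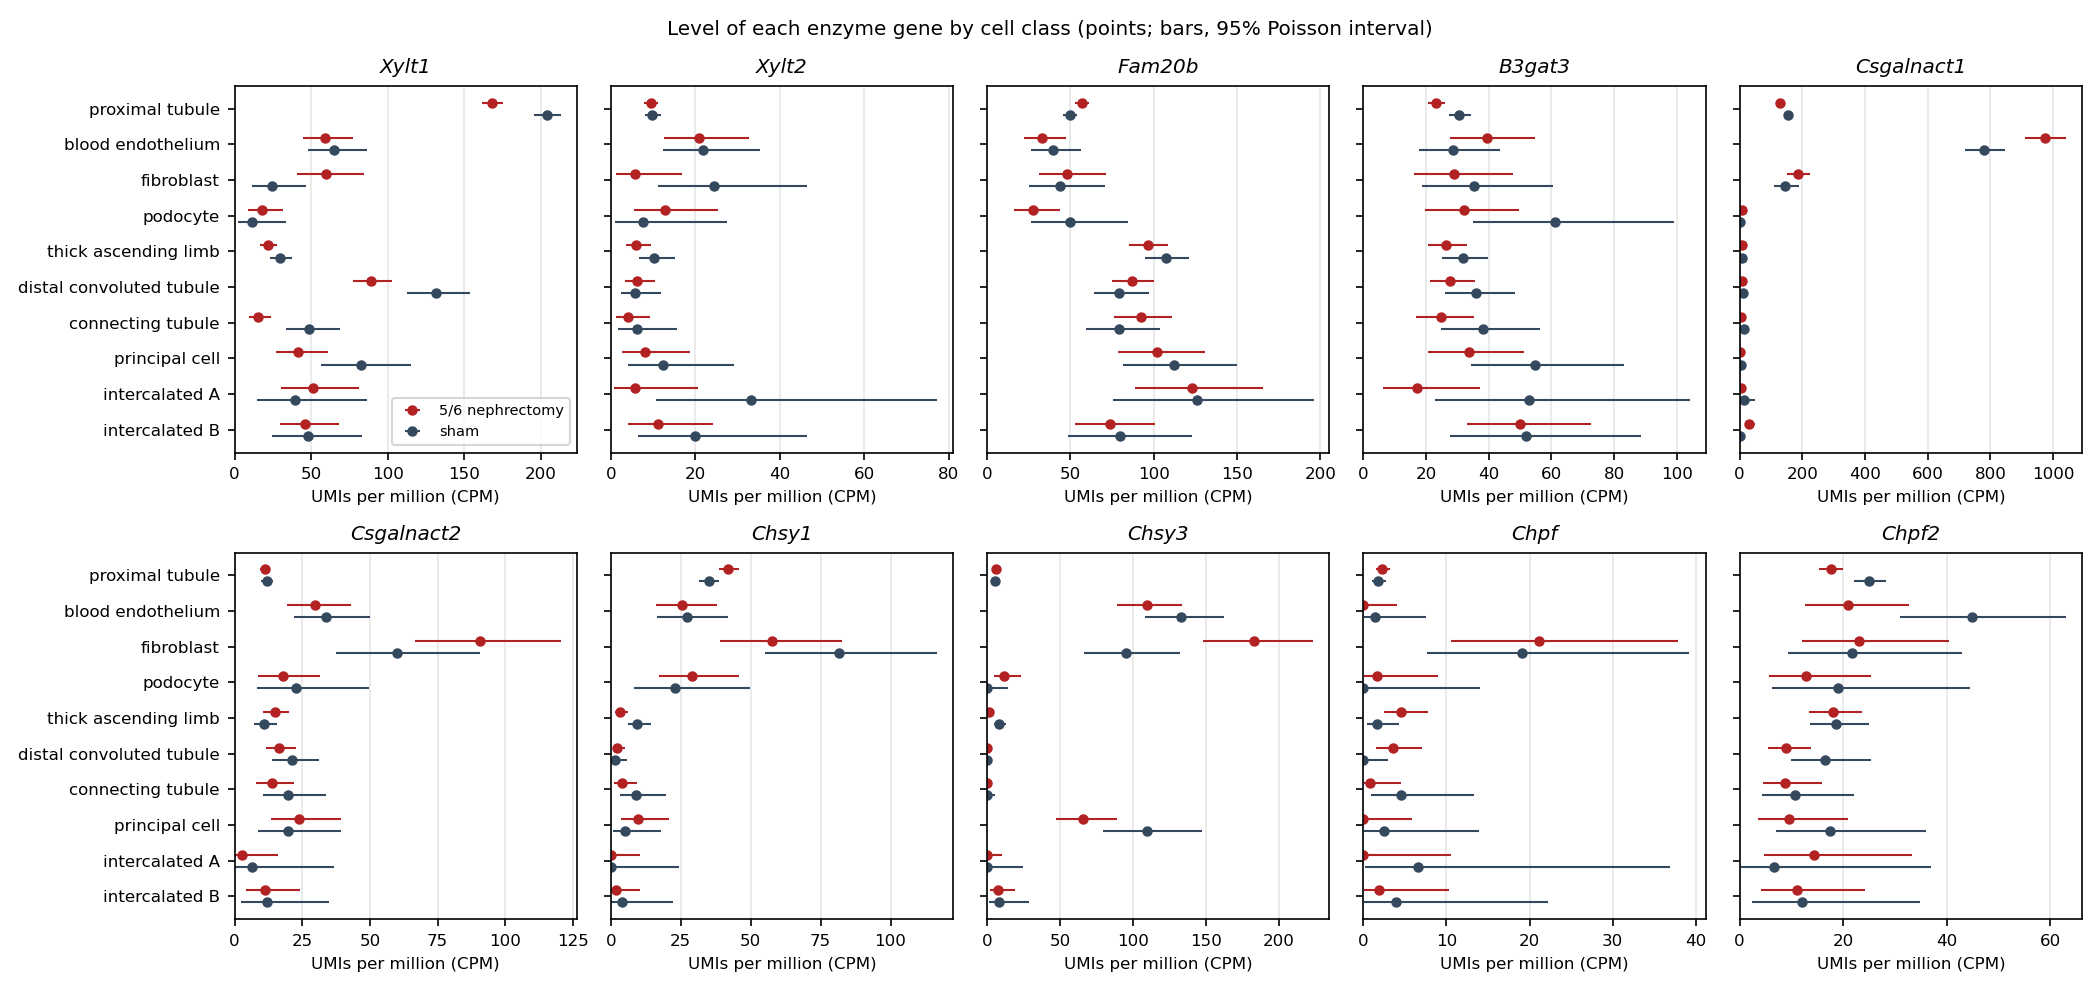
Level of each of the 10 enzyme genes in the 10 compared classes, in UMIs per 1000000 (CPM), for the 5/6 nephrectomy library (red) and the sham library (dark blue). Bars are 95% Poisson intervals; Csgalnact1 stands at 974 and 781 CPM in endothelium-like nuclei of nephrectomy and sham, and Fam20b is highest in the distal nephron.

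The linker genes fell into different cell-type patterns, with Xylt1 concentrated in proximal tubule-like nuclei and Fam20b highest in the distal nephron. Xylt1, which codes for one of the xylosyltransferases that start every linker, stood at 168 CPM (161 to 175) in nephrectomy and 204 CPM (195 to 213) in sham proximal tubule-like nuclei. These nuclei held 78.1% and 78.2% of all Xylt1 UMIs, against 53.3% and 56.4% of the UMIs of all genes. Distal convoluted tubule-like nuclei came next, at 89.2 CPM (77.3 to 103) and 132 CPM (112 to 154). In both libraries the intervals of these classes did not overlap each other. That of distal convoluted tubule-like nuclei overlapped that of the next class, though the ratio of these levels had an interval above 1. The other compared classes ranged from 15.3 to 59.7 CPM in the nephrectomy and from 11.4 to 82.2 CPM in the sham library.

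Xylt1 was lower in the nephrectomy library along much of the nephron. Its ratio was 0.825 (0.777 to 0.876) in proximal tubule-like, 0.677 (0.547 to 0.838) in distal convoluted tubule-like and 0.505 (0.290 to 0.870) in principal cell-like nuclei. The proximal tubule value includes cluster 6, which comes almost wholly from the sham library. Proximal tubule-like clusters 1, 2 and 9 were at 0.947, 1.22 and 0.772. Connecting tubule-like nuclei had 19 and 32 UMIs in nephrectomy and sham, or 15.3 and 48.8 CPM, a ratio of 0.313 (0.168 to 0.569) that moved to 0.686 when doublets were kept and to 0.203 after subtraction of free RNA. With TMM scaling the ratio was 0.331 in connecting tubule-like and 0.546 in principal cell-like nuclei, and the principal cell ratio was 0.276 after thinning to 1000 UMIs a nucleus. Fibroblast-like nuclei went the other way, with 31 and 9 UMIs, or 59.7 and 24.5 CPM, a ratio of 2.44 (1.13 to 5.82). That direction turned to 0.752 when doublets were kept and to 0.633 when nuclei were named one by one from a marker score, and free RNA alone would give 20.4 CPM in nephrectomy and 23.0 CPM in sham fibroblast-like nuclei. In blood endothelium-like nuclei Xylt1 stood at 59.4 and 65.2 CPM, a ratio of 0.910 (0.606 to 1.37).

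Xylt2, the paralog of Xylt1, was sparse in these libraries and spread over all 10 classes. Its highest nephrectomy level was 20.9 CPM (12.6 to 32.6) in endothelium-like nuclei, against 21.7 CPM (12.4 to 35.3) in the sham library. Proximal tubule-like nuclei had 124 and 102 UMIs in nephrectomy and sham, a ratio of 0.961 (0.734 to 1.26). The intervals of neighbouring classes in the order of Xylt2 levels overlapped throughout in both libraries. Xylt1 made up 94.7% (93.7 to 95.6) of the pair's UMIs in nephrectomy and 95.4% (94.5 to 96.3) in sham proximal tubule-like nuclei. In endothelium-like nuclei the share was 74.0% (62.4 to 83.5) and 75.0% (62.6 to 85.0), below the proximal tubule in both libraries.

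Fam20b, the xylose kinase gene, had its highest levels from the thick ascending limb to the collecting duct. Intercalated A-like nuclei stood at 123 CPM in nephrectomy and 126 in sham, principal cell-like nuclei at 102 and 112, thick ascending limb-like nuclei at 96.4 and 107, and connecting tubule-like nuclei at 92.4 and 79.3. Blood endothelium-like nuclei were low at 33.0 CPM (22.3 to 47.1) and 39.4 CPM (26.4 to 56.6). The intervals of neighbouring classes overlapped, while those of the ends of the order did not, since the thick ascending limb intervals (85.3 to 109 and 94.8 to 121 CPM) lay above those of endothelium. In proximal tubule-like nuclei Fam20b was at 56.7 CPM in nephrectomy and 49.5 CPM in sham, a ratio of 1.15 (1.02 to 1.28), which was 0.943 at equal weight of the 4 clusters with at least 50 nuclei of each library. It was 1.15, 1.08 and 1.10 in clusters 1, 2 and 9, and 0.648 (0.187 to 1.83) in the shallow cluster 5, with 5 and 17 UMIs. Its ratio in the other 9 classes lay between 0.553 in podocyte-like and 1.17 in connecting tubule-like nuclei, and every interval there included 1.

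B3gat3, which codes for the glucuronyltransferase that finishes the linker, was found in all 10 classes, from 17.2 to 49.96 CPM over the classes of the nephrectomy library and from 28.5 to 61.0 CPM in the sham library. The intervals of all neighbouring classes in the order overlapped in both libraries, while intercalated B-like nuclei (32.9 to 72.7 CPM) lay above proximal tubule-like nuclei (20.6 to 25.9 CPM) in nephrectomy. In the sham library podocyte-like nuclei (34.9 to 99.0 CPM) lay above proximal tubule-like nuclei (27.4 to 34.2 CPM). In proximal tubule-like nuclei it was lower after nephrectomy, with 305 and 319 UMIs or 23.2 and 30.6 CPM, a ratio of 0.756 (0.644 to 0.887). The ratio was below 1 in 9 of the 10 classes and 1.39 (0.788 to 2.50) in endothelium-like nuclei. Outside proximal tubule-like nuclei every interval included 1. Intercalated A-like nuclei, among the 9, held 6 and 8 UMIs, under the minimum of 20. Of all genes under 20 kb, 62.5% were below 1 in proximal tubule-like nuclei.

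Of the initiation genes, Csgalnact1 was concentrated in 3 classes, and Csgalnact2 was found at a low level in most. Csgalnact1 had 886 and 575 UMIs in endothelium-like nuclei of nephrectomy and sham, or 974 CPM (911 to 1040.4) in nephrectomy, against 781 CPM (719 to 848) in sham, which gave a ratio of 1.25 (1.12 to 1.39). A UMI was seen in 76.0% and 64.7% of these nuclei at median depths of 3156.5 and 2680.5 UMIs, and in 52.6% and 44.8% after each nucleus was thinned to 1000 UMIs. Thick ascending limb-like nuclei, taken as background at median depths of 6888 and 5830 UMIs, had a UMI in 3.52% and 3.83% of nuclei. Their 7.04 and 8.27 CPM were under the 8.67 and 12.2 CPM that free RNA would give.

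Csgalnact1 in fibroblast-like nuclei stood at 185 CPM (149.8 to 226) in nephrectomy, against 144 CPM (108 to 189) in sham, which gave a ratio of 1.28 (0.908 to 1.83). In proximal tubule-like nuclei it was at 128 CPM (122 to 135) in nephrectomy, against 155 CPM (147 to 163) in sham, which gave a ratio of 0.829 (0.774 to 0.888). The proximal tubule ratio includes cluster 6, which comes almost wholly from the sham library and is described below. Fibroblast-like nuclei ranked above proximal tubule-like nuclei in the nephrectomy library, while in the sham library their intervals overlapped. The remaining 7 classes reached at most 29.6 CPM, in nephrectomy intercalated B-like nuclei, where 16 UMIs lay in 3 nuclei. In endothelium-like nuclei the free RNA share was 15.03% in nephrectomy and 13.4% in sham, and the ratio was 1.27 after its subtraction and 1.10 after thinning. Over the whole library the ratio was 0.874 (0.828 to 0.923), and 1.04 when each nucleus had equal weight. A whole-library level mixes the level per nucleus with the number and depth of nuclei in each class, and these cannot be told apart in it.

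Csgalnact2 was highest in fibroblast-like nuclei, at 90.6 CPM (66.5 to 120.4) in nephrectomy and 59.9 CPM (37.5 to 90.6) in sham. The step down to the next class, endothelium-like nuclei at 29.7 and 34.0 CPM, left intervals that did not overlap in the nephrectomy library and did overlap in the sham library. The fibroblast ratio of 1.51 (0.894 to 2.64) passed 1.5 while its interval included 1, and it was 2.34 with clustering at a Leiden resolution of 2. It was under 1.5 with the strict filter of barcodes, at 1.46, without the nucleus with most UMIs, at 1.44, and after thinning, at 1.24. Csgalnact1 made up 97.0% (95.7 to 98.0) of the pair's UMIs in nephrectomy and 95.8% (93.9 to 97.3) in sham endothelium-like nuclei, and 67.1% (58.8 to 74.8) and 70.7% (59.0 to 80.6) in fibroblast-like nuclei. In thick ascending limb-like nuclei the share was 32.3% (20.9 to 45.3) and 43.5% (28.9 to 58.9), and in distal convoluted tubule-like nuclei 26.0% (14.6 to 40.3) and 31.6% (17.5 to 48.7). In the thick ascending limb, distal convoluted tubule, connecting tubule and principal cell-like nuclei Csgalnact1 lay below the estimated free RNA level in both libraries.

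**Figure D2:**
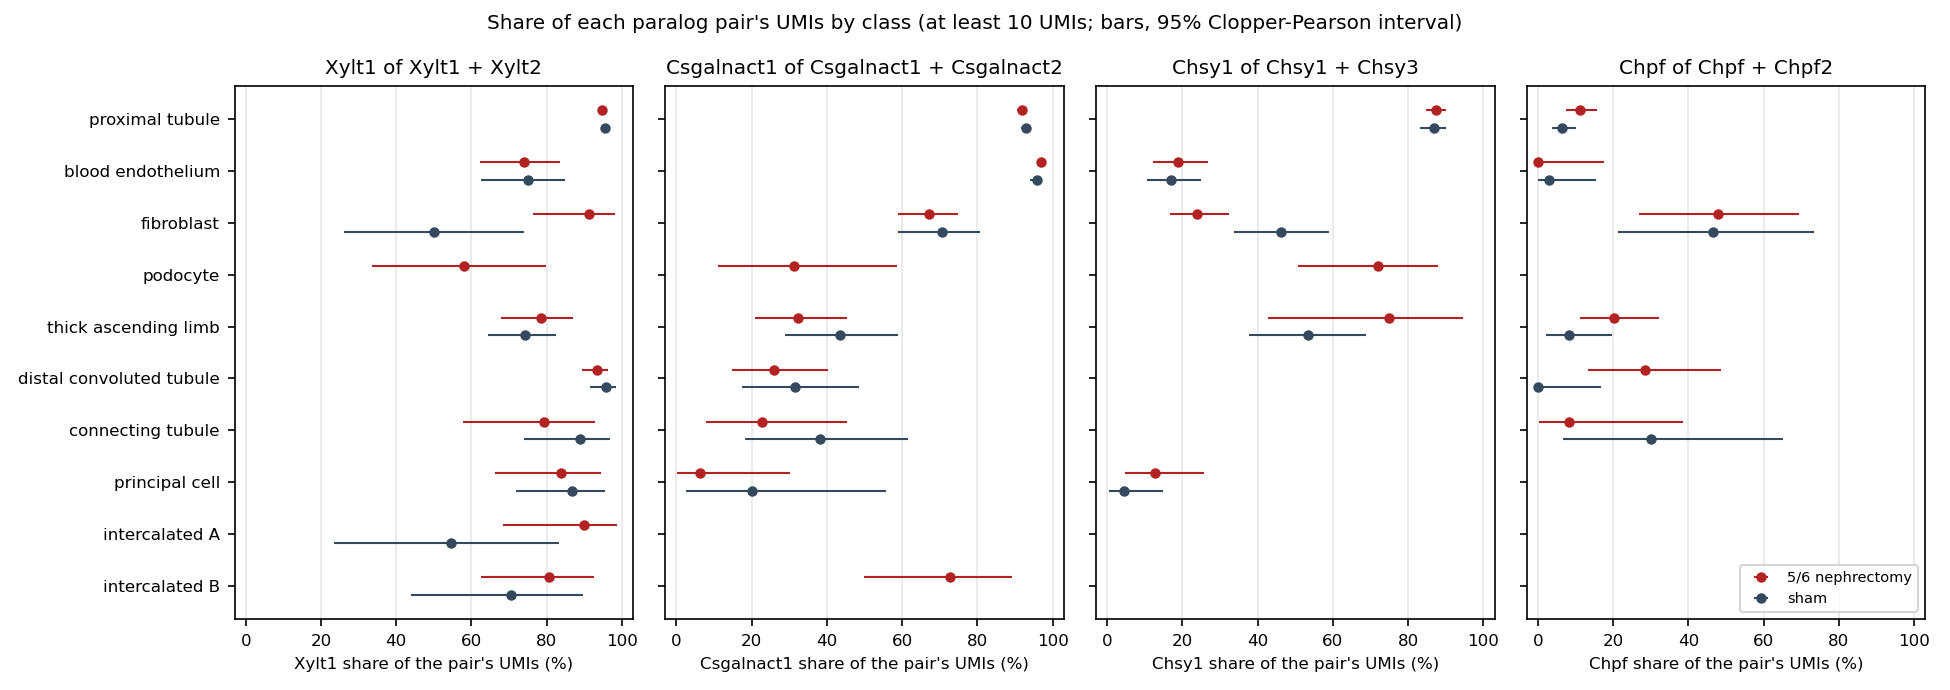
Share of the first gene in the summed UMIs of each paralog pair, by class, for 5/6 nephrectomy (red) and sham (dark blue), with 95% Clopper-Pearson intervals; points need at least 10 UMIs. Chsy1 makes up 87.5% and 86.9% of its pair in proximal tubule-like nuclei and 18.7% and 16.9% in endothelium-like nuclei.

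The chondroitin synthase genes Chsy1 and Chsy3 were both present in fibroblast-like and endothelium-like nuclei and differed in the proximal tubule and in principal cells. Chsy1 stood at 42.0 CPM (38.6 to 45.6) in nephrectomy and 35.0 CPM (31.5 to 38.7) in sham proximal tubule-like nuclei. These nuclei held 77.2% and 72.2% of its UMIs, against 53.3% and 56.4% of the UMIs of all genes. The highest level of Chsy1 was in fibroblast-like nuclei, at 57.8 and 81.6 CPM. It was present in podocyte-like nuclei, at 29.0 and 22.9 CPM, and in endothelium-like nuclei, at 25.3 and 27.2 CPM. From the thick ascending limb on it was low, with at most 9.58 CPM in nephrectomy and 9.51 CPM in sham over the thick ascending limb, distal convoluted, connecting, principal and intercalated classes. Intercalated A-like nuclei had 0 UMIs in both libraries, which allows up to 8.58 CPM in nephrectomy and 19.9 CPM in sham at a limit of 3 counts.

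Chsy3 shared the fibroblast and endothelial classes with Chsy1, was low in the proximal tubule and was present in principal cell-like nuclei. Fibroblast-like nuclei stood at 183 CPM (148 to 224) in nephrectomy and 95.2 CPM (66.3 to 132) in sham, endothelium-like nuclei at 109.9 CPM (89.5 to 134) and 133 CPM (108 to 162), and principal cell-like nuclei at 65.5 CPM (47.0 to 88.8) and 109.7 CPM (79.7 to 147). In the nephrectomy library the intervals of these 3 classes did not overlap and fibroblast-like nuclei came first, while in the sham library the intervals overlapped and endothelium-like nuclei had the highest value. Proximal tubule-like nuclei had 6.00 and 5.28 CPM. Distal convoluted and connecting tubule-like nuclei had 0 UMIs in both libraries, which allows up to 1.34 CPM in nephrectomy and 2.46 CPM in sham distal convoluted nuclei at the same limit of 3 counts. The Chsy1 share of the pair was 87.5% (84.7 to 90.0) and 86.9% (83.3 to 90.0) in proximal tubule-like, 18.7% (12.2 to 26.7) and 16.9% (10.7 to 24.96) in endothelium-like and 12.8% (4.83 to 25.7) and 4.35% (0.531 to 14.8) in principal cell-like nuclei.

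Chsy3 was higher in fibroblast-like nuclei of the nephrectomy library, with 95 and 35 UMIs in 23 and 18 nuclei, a ratio of 1.92 (1.29 to 2.92). The single fullest nucleus held 17 and 9 of these UMIs, and the ratio without the fullest nucleus of each library was 2.09. At equal weight per nucleus the ratio was 1.70. After thinning it was 4.41, with 11.3% of nephrectomy and 4.44% of sham nuclei holding a UMI. The thinned values rest on few UMIs, since Chsy1 and Chsy3 together had 23 in the thinned nephrectomy fibroblast-like nuclei. The 3 fibroblast clusters did not move together. Cluster 10, led by Abca8a and C7, had a ratio of 3.14 (1.82 to 5.76), cluster 20 one of 0.552 (0.237 to 1.22), and cluster 21 had 6 nephrectomy and 0 sham UMIs. Among fibroblast-like nuclei the Chsy1 share of the pair was 24.0% (16.8 to 32.5) in nephrectomy and 46.2% (33.7 to 59.0) in sham. In principal cell-like nuclei Chsy3 was lower, with 41 and 44 UMIs, a ratio of 0.597 (0.381 to 0.935), and in endothelium-like nuclei its ratio was 0.826 (0.619 to 1.10). Thick ascending limb-like nuclei had 3 and 20 UMIs, but 18 of the sham UMIs lay in 1 nucleus, so the ratio of 0.128 (0.0243 to 0.430) rests on that nucleus.

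Among the smaller classes, which were not compared as groups, thin limb-like nuclei carried Chsy3 at 322 CPM (218 to 456) in nephrectomy and 318 CPM (216 to 452) in sham, in 9 of 16 and 9 of 21 nuclei, and no Chsy1 UMI in either library. The injured proximal tubule-like cluster, marked by Havcr1 and Vcam1, had 73 Chsy3 UMIs in 7 of 26 nephrectomy nuclei, with 31 in a single nucleus, against 0 in 6 sham nuclei. That is 251 CPM (197 to 316) in nephrectomy, with up to 76.0 CPM allowed in sham. Cluster 29, left unnamed because parietal epithelium and injured proximal tubule markers scored alike, held 111 Chsy3 UMIs in 14 of 20 nephrectomy nuclei and 17 in 3 of 7 sham nuclei, or 736 and 578 CPM. These clusters with few nuclei held much of the gene, since nuclei outside the 10 compared classes carried 41.1% of nephrectomy and 24.6% of sham Chsy3 UMIs. The whole-library ratio of Chsy3 was 1.24 (1.08 to 1.42), and 1.07 at equal weight per nucleus.

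Chsy1 was higher in nephrectomy proximal tubule-like nuclei, with 553 and 364 UMIs and a ratio of 1.20 (1.05 to 1.38). This direction depended on how the clusters were weighted, since the ratio was 0.818 at equal weight of the 4 shared clusters, where the shallow cluster 5 held 0 and 7 UMIs. The Chsy1 ratio was 1.27 (1.01 to 1.60) in cluster 1. In cluster 2, with 490 nephrectomy and 98 sham nuclei, it was 0.893 (0.664 to 1.22). In thick ascending limb-like nuclei Chsy1 was lower, with 9 and 23 UMIs in 9 and 18 nuclei, a ratio of 0.333 (0.136 to 0.747). Those levels, 3.17 and 9.51 CPM, lay near the 2.18 and 2.53 CPM of free RNA in nephrectomy and above it in sham, and the ratio was 0.148 after its subtraction.

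The chondroitin polymerizing factor genes Chpf and Chpf2, whose products join the synthases, were sparse. Chpf had 79 and 44 UMIs in the whole nephrectomy and sham libraries and was highest in fibroblast-like nuclei, at 21.2 CPM (10.6 to 37.9) and 19.0 CPM (7.66 to 39.2). It made up 47.8% (26.8 to 69.4) and 46.7% (21.3 to 73.4) of the pair's UMIs there, and 11.2% (7.60 to 15.6) and 6.47% (3.88 to 10.0) in proximal tubule-like nuclei. Chpf2 was found in all 10 classes, between 8.84 and 23.1 CPM in nephrectomy and between 6.62 and 44.8 CPM in sham. Chpf2 was lower in nephrectomy proximal tubule-like nuclei, with 231 and 260 UMIs, a ratio of 0.703 (0.586 to 0.842). At equal weight of the shared clusters it was 1.01, where cluster 5 had 3 and 3 UMIs and a ratio of 2.20 (0.295 to 16.5), while clusters 1, 2 and 9 were at 0.802, 0.677 and 0.805. In endothelium-like nuclei it had 19 and 33 UMIs, or 20.9 and 44.8 CPM, a ratio of 0.466 (0.250 to 0.844). After thinning 0.791% of nephrectomy and 6.52% of sham endothelium-like nuclei had a Chpf2 UMI. The ratio of thinned CPM was 0.170, with the nephrectomy count raised to a floor of 3.

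Within the proximal tubule the enzymes followed different clusters. Cluster 1, with the early-segment glucose transporter gene Slc5a2 among its markers, held 386 nephrectomy and 282 sham nuclei, and cluster 9, with the late-segment genes Slc7a13 and Cyp7b1, held 153 and 172. Csgalnact1 was low in cluster 1, at 43.9 CPM in nephrectomy and 23.4 CPM in sham, and stood at 199.7 and 198 CPM in cluster 2 and at 100.1 and 123 CPM in cluster 9. Xylt1 had the opposite order between clusters 1 and 9, at 207 CPM in nephrectomy and 219 CPM in sham nuclei of cluster 1, against 48.8 and 63.1 CPM in cluster 9, and like Csgalnact1 it was high in cluster 2, at 177 and 145 CPM. Chsy3 was nearly restricted to cluster 9, which held 64 of 79 nephrectomy and 47 of 55 sham UMIs of the class. Chsy1 varied less, from 30.6 to 48.3 CPM in nephrectomy and from 26.8 to 46.0 CPM in sham over clusters 1, 2 and 9.

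The class ratios of Csgalnact1 and Xylt1 combined clusters that differed. Csgalnact1 was higher in nephrectomy nuclei of cluster 1, at a ratio of 1.88 (1.43 to 2.49), near 1 in cluster 2, at 1.01 (0.877 to 1.17), and lower in cluster 9, at 0.811 (0.665 to 0.988). The shallow cluster 5, with 54 nephrectomy and 132 sham nuclei, had 5 and 31 UMIs of Csgalnact1, a ratio of 0.355 (0.108 to 0.922). Cluster 6, with 5 nephrectomy and 362 sham nuclei, held 1056 of the 1612 sham UMIs, at 253 CPM. A cluster that comes almost wholly from 1 library may be that library, so no ratio is drawn from it. The class ratios of Csgalnact1 and Xylt1 do include its nuclei. Xylt1 had a ratio of 0.947 (0.858 to 1.05) in cluster 1, 1.22 (1.04 to 1.45) in cluster 2 and 0.772 (0.581 to 1.02) in cluster 9, and cluster 6 held 1151 of 2125 sham UMIs. At equal weight of the 4 shared clusters the ratio was 0.795 for Csgalnact1 and 0.922 for Xylt1. The Csgalnact1 value includes the 0.355 of the shallow cluster 5, while clusters 1, 2 and 9 were at 1.88, 1.01 and 0.811. B3gat3 was below 1 in each of clusters 1, 2 and 9, at 0.652 (0.495 to 0.860), 0.866 (0.588 to 1.31) and 0.819 (0.536 to 1.25).

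**Figure D3:**
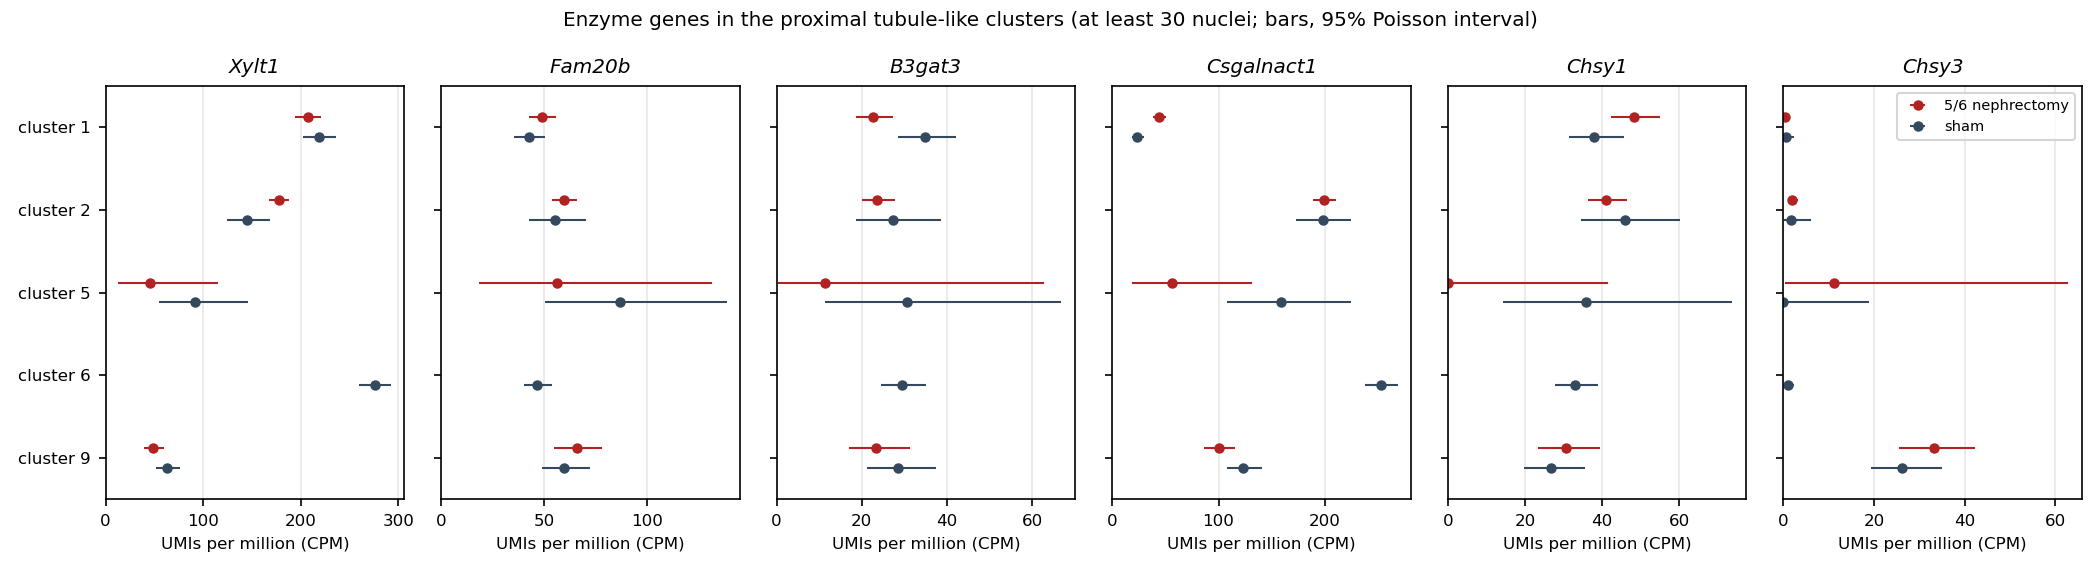
Levels of 6 of the enzyme genes in the 5 proximal tubule-like clusters, in CPM with 95% Poisson intervals, for 5/6 nephrectomy (red) and sham (dark blue); a library needs at least 30 nuclei in a cluster to be drawn. Xylt1 is high in clusters 1 and 2 and low in cluster 9, Csgalnact1 is low in cluster 1, and Chsy3 reaches 33.2 and 26.3 CPM in cluster 9.

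Counted together, no enzyme gene passed 1.5 times either way over the whole library, and within classes more pairs of member and class passed it down than up. Over the whole library 0 of 10 members were at least 1.5 times higher in nephrectomy, against 9.07% of all 17352 genes with at least 20 UMIs, and 0 were at least 1.5 times lower, against 10.8%. With 10 members, a count of 0 is close to these shares. The median log2 ratio was -0.08 for the members and 0.01 for all genes. Below 1 with an interval that excluded 1 were Xylt1 at 0.780 (0.739 to 0.822), Xylt2 at 0.821 (0.675 to 0.999), B3gat3 at 0.792 (0.708 to 0.886), Csgalnact1 and Chpf2 at 0.708 (0.616 to 0.813), and Chsy3 was above 1. After thinning the whole-library ratio was 0.459 for Chpf2 and 1.28 for Xylt2, and for Csgalnact1 it was above 1 at equal weight per nucleus, as given above.

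In fibroblast-like nuclei 3 of 8 measured members were at least 1.5 times higher, namely Xylt1, Chsy3 and Csgalnact2, against 14.7% of all genes there, and 0 were at least 1.5 times lower, against 14.4%. The median log2 ratio was 0.25, against -0.01 for all genes. Proximal tubule-like nuclei had 0 of 10 in either direction, against 11.3% higher and 12.1% lower. In endothelium-like nuclei 1 of 9, Chpf2, was lower, against 12%, and 0 higher, against 9.38%. Thick ascending limb-like nuclei had 3 of 9 lower, against 12.2%, and 0 higher, against 9.52%. The lower ones were Chsy1, Chsy3 and Xylt2, the last with 17 and 25 UMIs and a ratio of 0.579 (0.293 to 1.12).

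In the distal classes the members past 1.5 were all lower. Principal cell-like nuclei had 3 of 5 lower, against 15.9%, connecting tubule-like nuclei 2 of 4, against 16.1%, and distal convoluted tubule-like nuclei 2 of 7, against 13.3%. None of these was at least 1.5 times higher, against 11.1%, 11.6% and 9.67% of all genes in principal cell, connecting tubule and distal convoluted tubule-like nuclei. B3gat3 was among the lower ones in principal cell-like nuclei, at 0.612 (0.320 to 1.17), and in connecting tubule-like nuclei, at 0.654 (0.374 to 1.15), beside Xylt1 in both and Chsy3 in principal cell-like nuclei. Xylt1 was not among the distal convoluted calls, and these were Csgalnact1 at 0.590 (0.248 to 1.42) and Chpf2 at 0.545 (0.278 to 1.07), both with intervals that included 1. At equal weight per nucleus they were 1.04 and 0.958. The Csgalnact1 level in distal convoluted tubule-like nuclei was below the estimated free RNA level in both libraries. In podocyte-like nuclei Fam20b (0.553) and B3gat3 (0.529), 2 of 3 measured, were lower, against 13.6%, and 0 were higher, against 17.1%. Intercalated A-like and B-like nuclei had 0 of 2 and 0 of 3 in either direction, against 15.5% and 13.9% lower and 19.8% and 19% higher. Over the 60 measured pairs of member and class, 3 were at least 1.5 times higher and 13 at least 1.5 times lower, against 12.4% and 13.6% of all measured pairs of gene and class. The classes come from the same pair of libraries, so these pairs are not independent. With a minimum of 100 UMIs, 1 of 22 pairs was at least 1.5 times higher and 0 were lower.

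**Figure D4:**
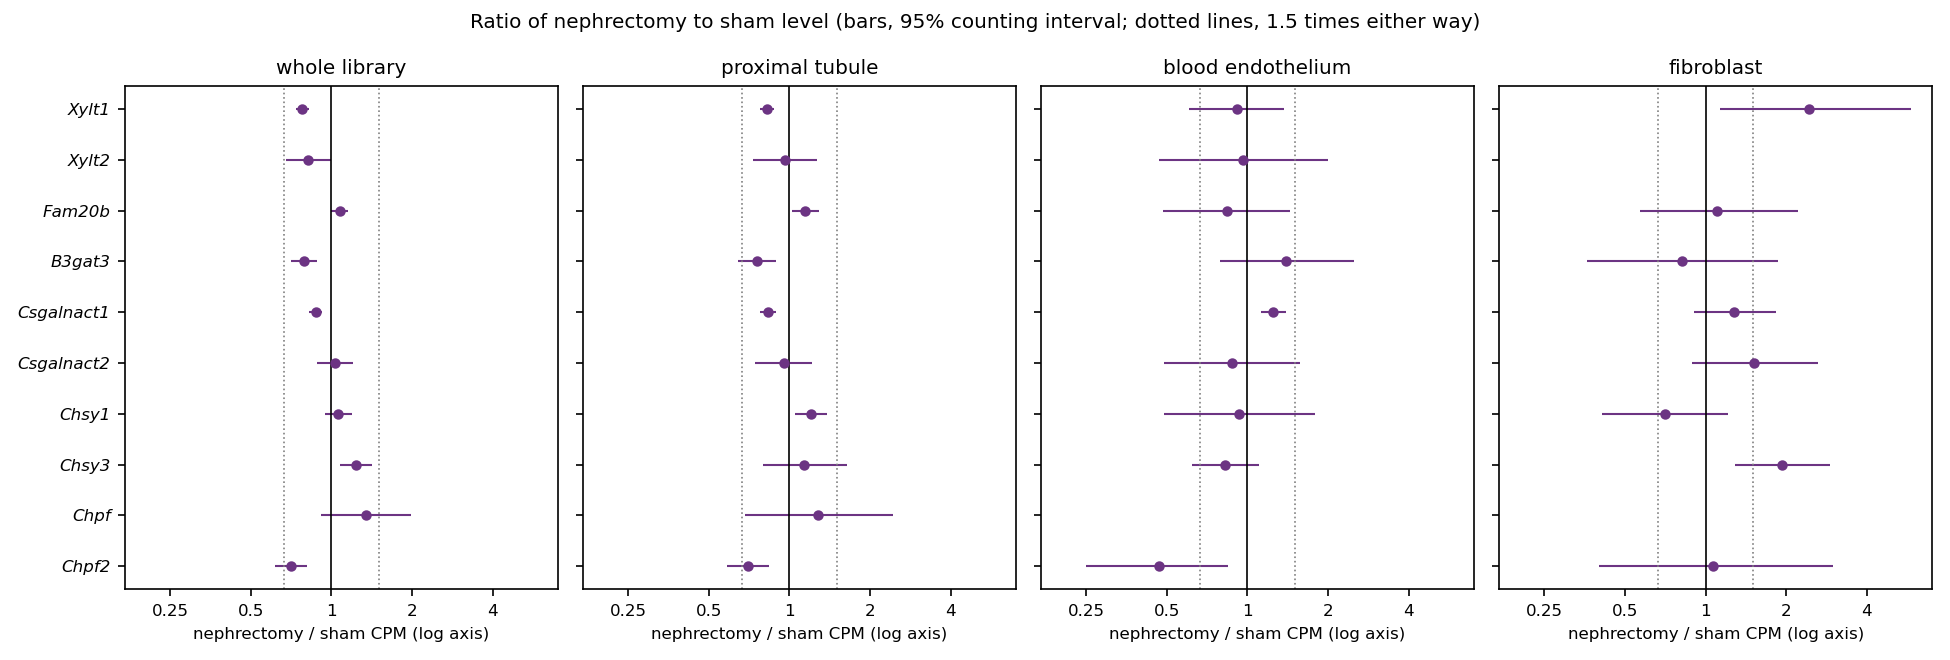
Ratio of nephrectomy to sham CPM of each enzyme gene with at least 20 UMIs, over the whole library and in 3 classes, on a log axis with 95% counting intervals; dotted lines mark 1.5 times either way. Csgalnact1 lies above 1 in endothelium-like nuclei and below 1 in proximal tubule-like nuclei, and Xylt1 and Chsy3 lie above 1.5 in fibroblast-like nuclei.

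Gene length moved with these ratios. Over the whole library, the log2 ratio had a median of -0.15 for genes under 20 kb and 0.22 for genes of 300 kb or more. Chpf at 4.74 kb, B3gat3 at 6.86 kb, Chpf2 at 7.82 kb and Xylt2 at 13.7 kb are the short members. B3gat3, Chpf2 and Xylt2 were below 1 and Chpf, at 1.34 (0.916 to 1.98), was above it. Of the long members, Chsy3 at 361 kb was above 1, while Csgalnact1 at 378 kb and Xylt1 at 293 kb were below 1, whereas all genes had a median ratio of 1.17 at 300 kb or more and of 1.12 from 100 to 300 kb. The mitochondrial share of UMIs was also lower in nephrectomy than in sham nuclei of every compared class, for example 0.751% against 1.05% in proximal tubule-like nuclei. The part of gene length and of the mitochondrial share in the member ratios was not tested.

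**Figure D5:**
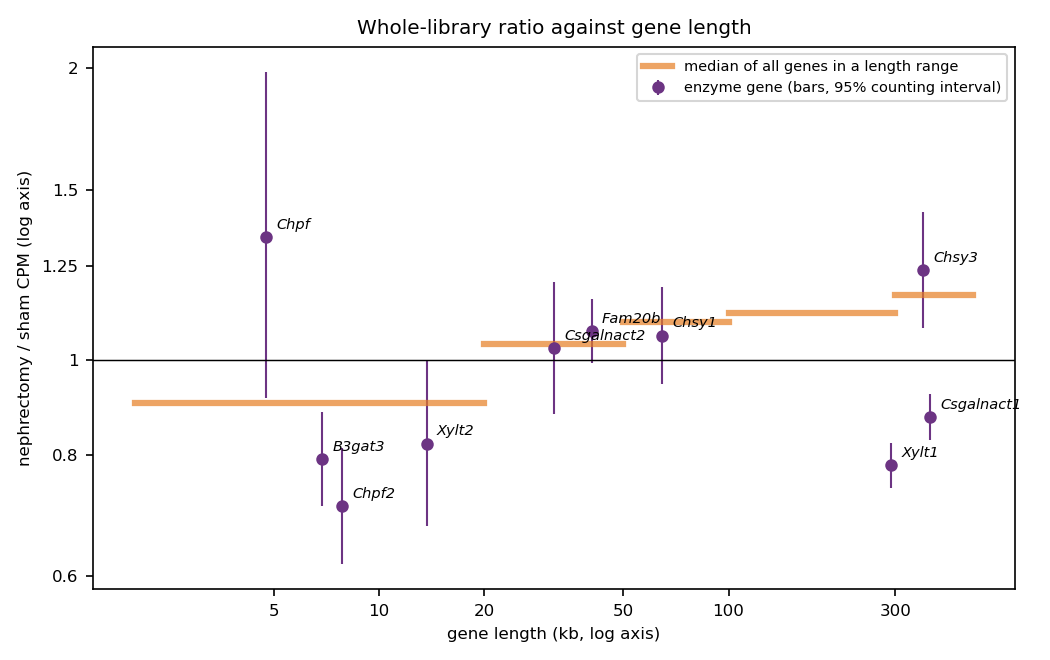
Whole-library ratio of nephrectomy to sham CPM against gene length in kb, both on log axes, for the 10 enzyme genes (purple, 95% counting intervals) and as the median of all genes in 5 length ranges (orange). Chpf2 and B3gat3 lie below the median of short genes, and Xylt1 and Csgalnact1 lie below the median of long genes.

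The 10 genes lie apart from each other in the mouse genome (build mm10, GENCODE vM21 annotation). Of the linker genes, Xylt1 (ENSMUSG00000030657) on chromosome 7 from 117380979 to 117673580 on the plus strand and Xylt2 (ENSMUSG00000020868) on chromosome 11 from 94663851 to 94677515 on the minus strand stand for the xylosyltransferases. The other linker genes are Fam20b (ENSMUSG00000033557) on chromosome 1 from 156678532 to 156719086 on the minus strand and B3gat3 (ENSMUSG00000071649) on chromosome 19 from 8920374 to 8927236 on the plus strand. The initiation genes are Csgalnact1 (ENSMUSG00000036356) on chromosome 8 from 68356781 to 68735146 on the minus strand and Csgalnact2 (ENSMUSG00000042042) on chromosome 6 from 118107452 to 118139140 on the minus strand. The synthase genes are Chsy1 (ENSMUSG00000032640) on chromosome 7 from 66109515 to 66173798 on the plus strand and Chsy3 (ENSMUSG00000058152) on chromosome 18 from 59175401 to 59535999 on the plus strand, and the polymerizing factor genes Chpf (ENSMUSG00000032997) on chromosome 1 from 75474569 to 75479307 on the minus strand and Chpf2 (ENSMUSG00000038181) on chromosome 5 from 24586741 to 24594556 on the plus strand. No member overlaps another gene on its own strand. On the opposite strand, Chsy1 overlaps Gm26827, Chpf2 overlaps Smarcd3, and Csgalnact1 overlaps 1700125H03Rik and Gm15656, and whether the counting used strand is not given in the sources used here, so reads of these pairs may be mixed.

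Genes that work beside these enzymes moved unevenly. Of the 3 other linker genes, all were between the 1.5-fold bounds over the whole library, with the galactosyltransferase genes B4galt7 at 0.816 (0.660 to 1.01) and B3galt6 at 0.694 (0.468 to 1.03) and the xylose phosphatase gene Pxylp1 at 0.990 (0.859 to 1.14). The chondroitin and dermatan sulfotransferases and epimerases, which decorate the finished chain, had 0 of 10 higher and 3 lower, against 9.07% and 10.8% of all genes, with a median log2 ratio of -0.30, against 0.01 for all genes. The lower ones were the 4-O-sulfotransferase gene Chst11, at 81.5 CPM in nephrectomy and 159 CPM in sham, Chst7, at 6.80 and 15.2 CPM, and Chst14, at 0.526 and 1.08 CPM with an interval of its ratio that included 1. The Chst11 ratio was 0.411 (0.382 to 0.442) in proximal tubule-like and 0.960 (0.809 to 1.14) in endothelium-like nuclei. The proximal tubule value includes cluster 6, with 5 nephrectomy and 362 sham nuclei, and is not split by cluster here. The classes that held most Csgalnact1 thus differed in Chst11, a difference that was not tested.

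The heparan polymerase genes compete for the same linker. All 5 were above 1 over the whole library, with 0 past 1.5 and a median log2 ratio of 0.18. Ext2 stood at 72.3 CPM in nephrectomy and 55.7 CPM in sham, a ratio of 1.30 (1.20 to 1.40). Extl3, whose product commits the linker to heparan sulfate where CSGALNACT1 commits it to chondroitin, had a ratio of 1.17 (1.07 to 1.28), of 1.32 (1.16 to 1.51) in proximal tubule-like and of 1.78 (1.32 to 2.42) in endothelium-like nuclei. In endothelium-like nuclei, where Csgalnact1 was also higher, Extl3 stood at 159 CPM in nephrectomy and 89.7 CPM in sham. In fibroblast-like nuclei Extl3 was at 0.826 (0.577 to 1.19). The proximal tubule ratio of Extl3 also includes cluster 6, which comes almost wholly from the sham library.

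Of 17 measured genes for nucleotide sugar and sulfate donors, 0 were higher and 1 lower over the whole library, against the same 9.07% and 10.8% of all genes, namely Gnpda1 at 0.642 (0.598 to 0.689). In proximal tubule-like nuclei 3 of 17 were lower, against 12.1% of all genes there, among them Uap1, which makes UDP-N-acetylglucosamine, at 0.639 (0.574 to 0.711) and the sulfate donor gene Papss1 at 0.621 (0.539 to 0.715). Its paralog Papss2 was at 1.41 (1.35 to 1.47) there, and Slc35d1, the transporter gene that brings chondroitin precursors into the endoplasmic reticulum, at 1.12 (1.03 to 1.22). All these proximal tubule values include cluster 6, which comes almost wholly from the sham library. Of 16 measured core protein genes 3 were higher and 1 lower over the whole library, against 9.07% and 10.8% of all genes. These were Vcan, the versican gene, at 2.13 (1.44 to 3.23), Cd44 at 2.05 (1.46 to 2.93), Spock3 at 1.66 (1.33 to 2.08), named after its value was seen, and Cspg5 at 0.520 (0.292 to 0.913). In fibroblast-like nuclei the decorin gene Dcn was at 189 CPM in nephrectomy and 109 CPM in sham, a ratio of 1.73 (1.19 to 2.57). It was the 1 higher gene of 9 core protein genes measured there, against 14.7% of all genes. Another 2, Srgn and Csf1, were at least 1.5 times lower, against 14.4%. The median log2 ratio of the 9 was -0.22, against -0.01 for all genes there. Over the whole library the 12 measured genes for chain breakdown had 0 past the bounds in either direction and a median log2 ratio of -0.01.

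The class patterns can be set against other genes through Pearson's r of log2(CPM + 10) over 20 points, which are 10 classes in each of 2 libraries that share their depth and their free RNA. The genes most like Csgalnact1 were Jam3 (0.969), B3galnt1 (0.957) and Sema6a (0.950), and those most like Chsy3 were Gjc1 (0.955), Fstl1 (0.937) and Cacna1a (0.936). Fam20b was closest to Rnf43 (0.958), Mavs (0.949) and Me3 (0.937), Chsy1 to Adgra2 (0.906), B4galt1 (0.896) and Zeb2 (0.893), and Csgalnact2 to Chic2 (0.930). The coefficients of Xylt1 and B3gat3 with their closest genes were lower, at most 0.824 and 0.802. Among the members, Csgalnact2 and Chsy3 had the highest coefficient, at 0.750, and Chsy1 and Fam20b the lowest, at -0.799.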

How the data were processed

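Nuclei of frozen kidney were profiled by droplet (10x) sequencing, 1 library per group. Whole-number UMI counts per gene and barcode are as the authors deposited them, in filtered matrices. They were made with Cell Ranger 7.1.0 and mm10 per the submitters' processing notes, while the version in the file headers is 7.0.1, and whether introns were counted is not given in the sources used here.

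From the counts, barcodes under 200 genes or above 10% mitochondrial UMIs were dropped, 112 in the nephrectomy and 109 in the sham library. Scrublet's own threshold marked 4 nuclei in each library, so the highest 3% of scores and clusters with at least 20% of such nuclei were removed, 144 and 147 nuclei. Nuclei were clustered with scanpy 1.11.5 (Python 3.11.15, scikit-learn 1.9.0, leidenalg 0.10.2) on 2000 variable genes without the members, their pathway genes, mitochondrial or ribosomal genes, using 30 components, 15 neighbours and a Leiden resolution of 1, which gave 32 clusters. A cluster took a class name when at least 3 markers of that type were 2-fold higher than elsewhere and in at least 5% of its nuclei. Clusters with a median depth under 1/3 of their library's and no such marker among their top 10 genes stayed unnamed. So did clusters with 2 classes scoring alike, and those whose best type, other than proximal tubule, had a mean marker log2 fold under 1. Unnamed were 519 nephrectomy and 555 sham nuclei, of which 422 and 412 are a shallow cluster with proximal tubule markers. UMIs were summed per library and class. Levels are CPM with exact Poisson intervals, ratios have exact conditional binomial intervals and shares Clopper-Pearson intervals, all at 95%. A gene was measured in a class with at least 20 UMIs, and a call was a ratio of at least 1.5 in either direction. For calls and list medians, a count under 3 was set to 3 before the ratio. Free RNA was estimated from proximal tubule marker UMIs in other classes, and in proximal tubule-like nuclei from thick ascending limb markers. Thinning to 1000 UMIs left out 275 nephrectomy and 319 sham nuclei. TMM factors came from edgeR 4.0.16 in R 4.3.3. The scripts were tested on simulated counts.

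The members and gene lists were chosen with earlier results of these data known. All 10 members are described, and from each list the highest and lowest 2 genes per class and a few set genes could be named. Each value was recomputed under 13 other settings (doublets kept, other clustering, filters, naming, scaling, weights, thinning, minima and fold), and under 2 more chosen after seeing the data: leaving out the nucleus with most UMIs, and equal weight of the shared proximal tubule clusters.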

Additional observations from a re-analysis of the deposited data

Results flagged for a closer look

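Some members were higher in 1 class and lower in another, each with an interval that excluded 1, and the differences between classes were not tested. Csgalnact1 had a ratio of nephrectomy to sham of 1.25 (1.12 to 1.39) in endothelium-like nuclei and 0.829 (0.774 to 0.888) in proximal tubule-like nuclei. The proximal tubule values of Csgalnact1, and of Xylt1 below, include cluster 6, with 5 nephrectomy and 362 sham nuclei. Csgalnact1 was at 1.88, 1.01 and 0.811 in proximal tubule-like clusters 1, 2 and 9, and at 0.355 in the shallow cluster 5. Chsy1 had 1.20 (1.05 to 1.38) in proximal tubule-like and 0.333 (0.136 to 0.747) in thick ascending limb-like nuclei. Chsy3 had 1.92 (1.29 to 2.92) in fibroblast-like nuclei, against 0.597 (0.381 to 0.935) in principal cell-like and 0.128 (0.0243 to 0.430) in thick ascending limb-like nuclei, the last resting on 1 sham nucleus. Xylt1 had 2.44 (1.13 to 5.82) in fibroblast-like nuclei, against 0.825 (0.777 to 0.876) in proximal tubule-like, 0.677 (0.547 to 0.838) in distal convoluted tubule-like, 0.505 (0.290 to 0.870) in principal cell-like and 0.313 (0.168 to 0.569) in connecting tubule-like nuclei. The fibroblast direction of Xylt1 turned in 2 alternatives, and the proximal tubule direction of Chsy1 turned at equal weight of the shared clusters. Chsy1 was at 1.27 in cluster 1 and 0.893 in cluster 2.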

How the results depend on the processing

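No paired analysis was possible because each group is 1 library. Of the member ratios recomputed under the alternatives, 680 of 738 stayed on their side of 1 and 58 crossed it, of which 8 concern ratios that were past 1.5 or had an interval without 1. These were Xylt1 in fibroblast-like nuclei, at 0.752 with doublets kept and 0.633 with nuclei named from a marker score, Csgalnact1 in distal convoluted tubule-like nuclei and over the whole library, at 1.04 and 1.04 with equal weight per nucleus, Xylt2 over the whole library, at 1.28 after thinning, and, at equal weight of the shared proximal tubule clusters, Chsy1 at 0.818, Chpf2 at 1.01 and Fam20b at 0.943. Median log2 ratios of lists changed sign for core proteins in connecting tubule-like nuclei, at 0.0377 with doublets kept and 0.31 after thinning, for sulfotransferases and epimerases there, at 0.42 with the marker score, and for chain breakdown in principal cell-like nuclei, at -0.23 with no minimum of UMIs. The 3 of 60 pairs of member and class at least 1.5 times higher became 5 of 59 at a Leiden resolution of 2, 1 of 53 with the strict filter of barcodes, 8 of 60 with equal weight per nucleus, 5 of 58 after free RNA was subtracted, 1 of 22 with a minimum of 100 UMIs, 6 of 86 with no minimum and 1 of 60 at 2-fold. The 13 of 60 pairs at least 1.5 times lower became 3 of 18 after thinning, 0 of 22 with a minimum of 100 UMIs, 23 of 86 with no minimum and 4 of 60 at 2-fold. Over the whole library, 0 members higher became 1 with equal weight or after thinning, and 0 lower became 2 after thinning. The class with the highest level was kept for 13 of 20 pairs of gene and library after thinning and for 20 of 20 after free RNA was subtracted. The cause of these changes was not tested. With 1 library per group the spread between animals is unknown, intervals cover counting error only, and in classes under 50 nuclei most members had too few UMIs to compare.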

Other observations

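Other members in the small classes, which hold too few nuclei for a comparison, are given as values. In lymphocyte-like nuclei, 13 in nephrectomy and 6 in sham, Chsy1 had 7 and 5 UMIs in 3 and 3 nuclei, or 226 CPM (90.9 to 466) and 343 CPM (112 to 801). Xylt1 had 9 and 5 UMIs there, or 291 CPM (133 to 552) and 343 CPM (112 to 801). In mononuclear phagocyte-like nuclei Xylt1 had 152 CPM (49.4 to 355) in nephrectomy and 83.0 CPM (26.9 to 194) in sham. Thin limb-like nuclei carried Fam20b at 135 CPM (71.8 to 231) and 103 CPM (49.2 to 189), levels like those of the thick ascending limb. The injured proximal tubule-like cluster had 23 Csgalnact1 UMIs in 7 of 26 nephrectomy nuclei, or 79.1 CPM (50.1 to 119), and 0 in 6 sham nuclei. Xylt1 there had 12 UMIs in 7 nephrectomy nuclei and 18 UMIs in 4 sham nuclei.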
